A study of Homo sapiens with 15 samples.

Results

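The HOX genes of clusters A, B, C and D were followed in A673 cells, an Ewing sarcoma line, across 5 conditions with 3 RNA-seq libraries each. Members were all genes whose symbol is HOXA, HOXB, HOXC or HOXD followed by a number, which gave 39 of the 57820 gene identifiers counted: 11 HOXA, 10 HOXB, 9 HOXC and 9 HOXD genes. Ewing sarcoma is driven by EWS/FLI, a fusion of the disordered N-terminal domain of EWS to the DNA-binding ETS protein FLI. In iLuc cells an shRNA against luciferase left the endogenous fusion (endo-EF) in place, whereas in iEF cells an shRNA depleted it, and both carried an empty cDNA vector. The other conditions were depleted cells that also received a cDNA: WT-EF (the wild-type fusion), Δ22 (a fusion from which nearly all of the EWS domain is deleted) or DAF (a fusion with tyrosines of the EWS domain changed to alanine). Cells received the shRNA on day 1 and a cDNA or empty vector on day 5 and were kept under selection to day 16 with puromycin at 2 µg/mL and hygromycin at 400 µg/mL. All libraries thus came from a single cell line after selection, and the labels do not say whether the 3 libraries of a condition came from independent cultures. The study draws a replicate as beginning with the shRNA transduction, and p-values here measure the spread between these libraries.

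HOX genes encode homeodomain transcription factors that give cells of the embryo their position along the head-to-tail axis and, for the posterior HOXA and HOXD genes, along the limb. They lie in clusters in which the order of genes along the chromosome follows the order of their expression domains, low paralog numbers anteriorly and high ones posteriorly, and adult cells and tumours often keep part of such a code. Polycomb proteins hold silent HOX genes down, trithorax proteins and retinoic acid activate them, and TALE homeodomain proteins (PBX, MEIS, PKNOX) bind DNA beside HOX proteins. Here paralogs 1 to 3 are called anterior (8 genes), 4 to 8 central (15 genes) and 9 to 13 posterior (16 genes).

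EWS/FLI binds runs of the tetranucleotide GGAA, so the sequence around the clusters was searched for at least 4 consecutive GGAA on either strand, in the GRCh37 assembly, from 500 kb before to 500 kb after each cluster. The HOXA window held 5 runs (4.516 per Mb), the HOXB window 17 (14.16 per Mb), the HOXC window 10 (8.951 per Mb) and the HOXD window 10 (9.106 per Mb), beside 5.755 per Mb over the whole genome. The only runs inside a cluster were 2 neighbouring ones in HOXB, and none lay inside HOXA, HOXC or HOXD. The runs inside HOXB lay between HOXB9 and HOXB13. Gene starts are the outer ends of the annotated gene spans, and the HOXB7 span encloses HOXB8 and HOXB9. The HOXB7 start used for distances thus lies beyond HOXB9, and other HOXB7 transcripts may start elsewhere. The run of each window shown here is the one closest to a HOX gene start, except that in HOXB the longer of the 2 inside the cluster and in HOXD the longest of the window are given, with 10 bases on either side and the GGAA units in capitals, read 5′ to 3′ on the GGAA strand:
HOXA, chr7:27270251-27270310, minus strand, 30.6 kb from the HOXA13 start: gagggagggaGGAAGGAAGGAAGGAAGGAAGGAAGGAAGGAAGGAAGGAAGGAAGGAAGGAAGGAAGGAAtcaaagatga
HOXB, chr17:46754479-46754506, minus strand, 43.6 kb from the HOXB7 start: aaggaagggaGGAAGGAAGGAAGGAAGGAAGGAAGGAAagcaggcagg
HOXC, chr12:54306703-54306726, minus strand, 25.9 kb from the HOXC13 start: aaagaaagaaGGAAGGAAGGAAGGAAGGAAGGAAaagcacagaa
HOXD, chr2:177521225-177521288, minus strand, 467.9 kb from the HOXD1 start: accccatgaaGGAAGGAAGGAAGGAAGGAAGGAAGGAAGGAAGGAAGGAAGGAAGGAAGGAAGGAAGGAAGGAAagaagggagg
The HOXA run has 15 units, the HOXB run 7, the HOXC run 6 and the HOXD run 16. As these runs were chosen by different rules, their lengths do not rank the clusters. The longest run of each window has 15 units in HOXA, 12 in HOXB, 15 in HOXC and 16 in HOXD. In HOXD the run closest to a HOX gene start has 8 units and lies 184.9 kb from the HOXD1 start. In RefSeq promoters (GRCh38, 250 bases before to 50 after the start), 27 of which carried the symbol of a member, the pair GGAAGGAA was found on either strand in 1 HOX promoter (HOXA2), against 3.67% of all 35116 promoters, and the ETS motif CCGGAAGT in none, against 4.14% of all. These matches describe the sequence only, and binding was not measured.

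Sequencing gave between 28659475 and 41859880 counts per library. The ranges of the conditions overlapped, except that every WT-EF library (at least 32943231) had more counts than every iLuc library (at most 32869306). Levels are given in CPM (counts scaled to a common library total), scaled by the trimmed mean of M-values (TMM). FLI1 reads, which include those of the fusion, checked the knockdown: they averaged 49.4 ± 2.62 CPM (SD, n = 3) in iLuc, 14.6 ± 1.44 in iEF, 17.6 ± 1.39 in WT-EF, 31.2 ± 6.09 in Δ22 and 24.3 ± 2.64 in DAF. The study's shRNA targets the 3′ untranslated region of the fusion transcript, which a cDNA need not carry. FLI1 reads may thus not be a like measure of fusion level between iLuc and the cDNA conditions. The Ewing sarcoma markers NR0B1, NKX2-2, STEAP1, PRKCB and CCND1 were present in every library, whereas CD99 had at most 3 counts in any library. CD99 lies in a region shared by the X and Y chromosomes, where reads that map to both copies can be lost, so this count does not show that the gene was silent. The 11 epithelial, blood and endothelial markers with an identifier reached at most 110 counts in a library (CD14 in a DAF library), and the summed level of the 5 blood markers ran from 0.397 to 1.01 CPM in iLuc, 1.58 to 2.12 in iEF, 0.555 to 0.932 in WT-EF, 0.879 to 3.29 in Δ22 and 1.79 to 4.70 in DAF.

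HOXB, HOXC and HOXD genes were expressed in A673 cells, and HOXA genes were at or near 0. Over the 15 libraries the members took 139355 counts, of which HOXD held 64117, HOXB 49370, HOXC 25782 and HOXA 86. The silent genes were 9 HOXA genes and HOXB1, which averaged under 1 count per library and had at most 2 counts in any library, so that 29 of the 39 members were tested. The other HOXA genes were HOXA10, with at most 8 counts in a library, and HOXA11, with at most 3. HOXA4 and HOXA6 had no count in any library. Differences between conditions in these HOXA genes were not detectable at this depth.

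Per kilobase of exon, HOXD8 had the highest level of all HOX genes in iLuc cells, at 23.4 CPM per kb, followed by HOXB7 (19.3), HOXD10 (16.4), HOXD13 (15.7), HOXC9 (15.6) and HOXD9 (9.61). In iEF cells HOXB7 came first at 26.3 CPM per kb, followed by HOXC9 (16.9), HOXD10 (11.4), HOXB2 (10.1) and HOXD8 (9.12). In WT-EF cells the leading genes were HOXD8 (19.0), HOXD10 (17.8), HOXD13 (17.3) and HOXB7 (17.2), so that HOXD genes held the first 3 places. In Δ22 and DAF cells HOXB7 (26.1 and 26.0) and HOXC9 (15.6 and 19.0) held the first places, as in iEF. The lengths count all exonic bases of a GENCODE annotation, among them the 18.2% of HOXD10 shared with HOXD11 on the same strand. The annotation used for counting is not given, so the order of genes with close levels may differ with other lengths.

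Summed over each cluster, the HOXD level in CPM per kb of exon was 76.9, 72.4 and 71.7 in the iLuc libraries, 34.7, 43.1 and 29.7 in iEF, 73.2, 70.8 and 75.4 in WT-EF, 32.3, 40.5 and 27.7 in Δ22 and 39.2, 40.6 and 33.9 in DAF. The iLuc and WT-EF libraries overlapped with each other and lay above every iEF, Δ22 and DAF library, which overlapped among themselves. The HOXB sum went the other way, at 37.3, 39.7 and 39.3 CPM per kb in iLuc, 55.2, 46.7 and 50.7 in iEF, 32.2, 30.6 and 32.6 in WT-EF, 55.7, 50.3 and 59.6 in Δ22 and 48.7, 46.2 and 47.4 in DAF. Every WT-EF library was thus below every iLuc library, and these in turn were below every library of the other conditions. The HOXC sum averaged between 23.5 and 26.3 CPM per kb in the 5 conditions and its libraries overlapped. HOXD genes accounted for 53.1% ± 1.96 (SD, n = 3) of the summed HOX level in iLuc, 31.9% ± 5.28 in iEF, 56.8% ± 0.481 in WT-EF, 29.8% ± 5.49 in Δ22 and 33.9% ± 2.30 in DAF. These sums are dominated by the few genes with high levels, and no test was run on them.

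**Figure D1:**
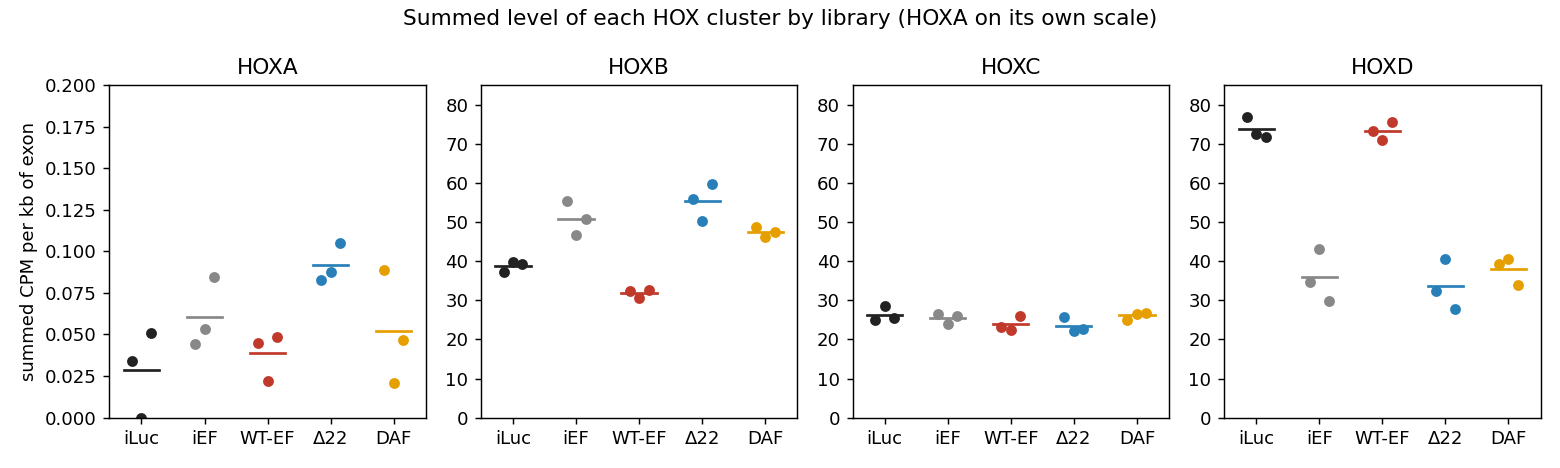
Summed level of each HOX cluster, in CPM per kb of exon, for the 5 conditions on the x axis. Points are libraries and lines are means of 3 libraries. HOXD was near 73 in iLuc and WT-EF and between 27.7 and 43.1 in the other conditions, HOXB was lowest in WT-EF, and HOXA, drawn on its own scale, stayed under 0.11.

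The first comparison asked which HOX genes differed between cells with endo-EF and depleted cells. Of the 29 members tested, 13 were higher and 8 lower in iLuc than in iEF, where 19.5% of all genes tested were higher and 22.1% lower (41.6% in either direction). The genes above the depleted level were mostly posterior: 10 of 14 posterior genes tested were higher (HOXB9, HOXB13, HOXC10, HOXC11, HOXC12, HOXC13, HOXD9, HOXD10, HOXD11 and HOXD13) and none was lower. Of 11 central genes, 2 were higher (HOXD4 and HOXD8) and 5 lower (HOXB6, HOXB7, HOXB8, HOXC5 and HOXC6), and of 4 anterior genes, 1 was higher (HOXD3) and 3 lower (HOXB2, HOXB3 and HOXD1). Within HOXB the split followed paralog number, with HOXB2, HOXB3, HOXB6, HOXB7 and HOXB8 lower, HOXB9 and HOXB13 higher, and HOXB4 and HOXB5 not passing the test. HOXC showed a like order, with HOXC5 and HOXC6 lower, HOXC10 to HOXC13 higher, and HOXC4, HOXC8 and HOXC9 not passing the test. In HOXD, 7 of 9 genes were higher, of all paralog classes, and the anterior end gene HOXD1 was lower. The median log2 fold change was 1.17 for HOXD, -0.48 for HOXB and -0.09 for HOXC, against 0.04 for all genes tested. By paralog class it was 1.00 for posterior, -0.44 for central and -1.23 for anterior genes. The 4 anterior genes ran from -3.77 (HOXD1, a gene with few counts) to 1.80 (HOXD3).

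**Figure D2:**
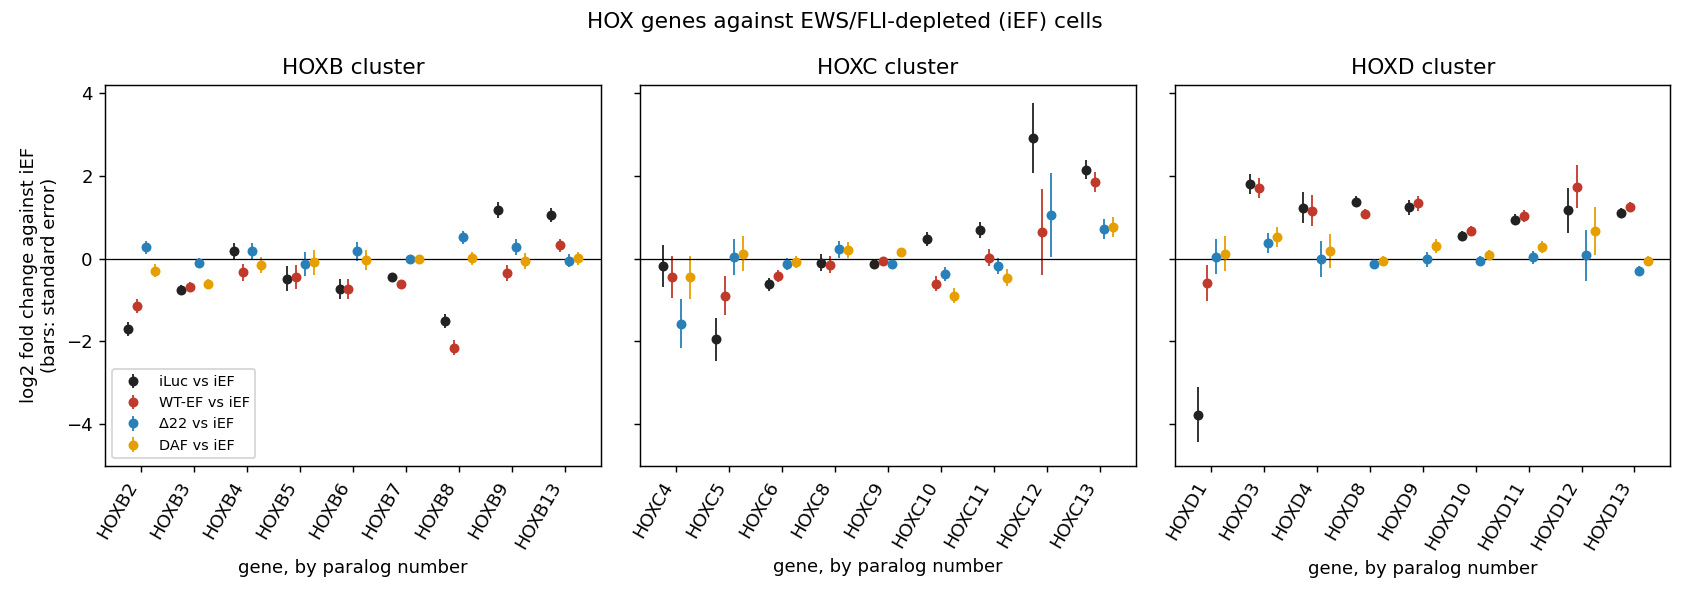
Log2 fold change of each tested HOXB, HOXC and HOXD gene against iEF (y axis), with genes by paralog number on the x axis. Points are edgeR estimates from 3 libraries per condition and bars are standard errors. iLuc and WT-EF lay above 0 over HOXD from HOXD3 to HOXD13, and Δ22 and DAF mostly lay near 0. HOXC12 in DAF, with 0 counts in all 3 libraries, is not drawn.

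WT-EF asked how much of this the re-expressed fusion restored. Against iEF, 9 members were higher and 7 lower in WT-EF, where 12.9% of all genes tested were higher and 17% lower (29.9% in either direction). The genes above iEF were 8 of 9 HOXD genes (HOXD3, HOXD4, HOXD8, HOXD9, HOXD10, HOXD11, HOXD12 and HOXD13) and HOXC13. The genes below were HOXB2, HOXB3, HOXB6, HOXB7, HOXB8, HOXC6 and HOXC10. The median log2 fold change was 1.16 for HOXD, -0.61 for HOXB and -0.15 for HOXC, against -0.01 for all genes. By paralog class it was 0.49 for posterior, -0.44 for central and -0.64 for anterior genes. The posterior median differed between clusters, at 1.24 in HOXD, 0.03 in HOXC and -0.01 in HOXB. For the 2 posterior HOXA genes tested, which had few counts, it was -0.87. Of 14 posterior genes tested, 6 were higher and 1 lower. Of the 13 members higher in iLuc than in iEF, 8 were also called higher in WT-EF, 4 were not called (HOXB9, HOXB13, HOXC11 and HOXC12) and HOXC10 was called lower. Of the 8 members lower in iLuc, 6 were also called lower in WT-EF, and HOXC5 and HOXD1 were not called. The iLuc and WT-EF comparisons share the iEF libraries.

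The mutants were compared with iEF in the same way. In Δ22 no member of 29 passed the test against iEF, where 1.3% of all genes tested did (0.472% higher and 0.83% lower), and 5 had an unadjusted p under 0.05 in edgeR (HOXB8 and HOXC13 above iEF, and HOXC4, HOXC10 and HOXD13 below). DESeq2 called 1 member, HOXB8, with a log2 fold change of 0.53 (adjusted p = 0.036), where edgeR gave 0.52 (adjusted p = 0.13). In DAF 2 members were lower than in iEF and none was higher, where 5% of all genes tested were higher and 6.19% lower (11.2% in either direction), so that with both directions counted the share of members called was no larger than that of all genes in either mutant. The lower ones were HOXB3, with a log2 fold change of -0.62 ± 0.12 (SE; adjusted p = 0.0035), and HOXC10, with -0.89 ± 0.17 (adjusted p = 0.0042). Without replicate 1 of every condition the HOXB3 call was lost in edgeR (adjusted p = 0.14). The HOXC10 call was lost without replicate 1 or without replicate 2 (adjusted p up to 0.073). An unadjusted p under 0.05 was reached by 2 members above iEF (HOXC13 and HOXD3) and 3 below (HOXB3, HOXC10 and HOXC11), and DESeq2 called HOXC13, at 0.79 (adjusted p = 0.020). The HOXD median was -0.00 in Δ22 and 0.19 in DAF, against 0.01 and 0.00 for all genes. FLI1 reads were higher in both mutants than in iEF, by 1.09 ± 0.10 on the log2 scale in Δ22 (adjusted p = 0.00045) and by 0.74 ± 0.10 in DAF (adjusted p = 0.00033), and by 0.27 ± 0.10 in WT-EF (adjusted p = 0.054). The part of fusion level in the differences between constructs was not tested.

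Direct tests compared the rescued cells with iLuc and with each other, without the iEF libraries as the reference. WT-EF differed from iLuc in 7 members, 2 higher (HOXB2 and HOXD1) and 5 lower (HOXB8, HOXB9, HOXB13, HOXC10 and HOXC11), where 10.7% of all genes tested were higher and 9.03% lower (19.7% in either direction). Against DAF, WT-EF was higher in 7 members (HOXC13, HOXD3, HOXD8, HOXD9, HOXD10, HOXD11 and HOXD13) and lower in 4 (HOXB2, HOXB6, HOXB7 and HOXB8), where 12.4% of all genes were higher and 16.1% lower. FLI1 reads were lower in WT-EF than in DAF by 0.47 ± 0.10 on the log2 scale (adjusted p = 0.0026). In DAF against Δ22 the edgeR fit called only HOXB3, lower by 0.52 on the log2 scale (adjusted p = 0.042), where 1.33% of all genes were called (0.948% higher and 0.379% lower). The HOXB3 call was lost when any of 12 single libraries was left out, among them each of the Δ22 and DAF libraries (adjusted p between 0.053 and 0.22). An unadjusted p under 0.05 was reached by 1 member above Δ22 (HOXC9) and 5 below.

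**Figure D3:**
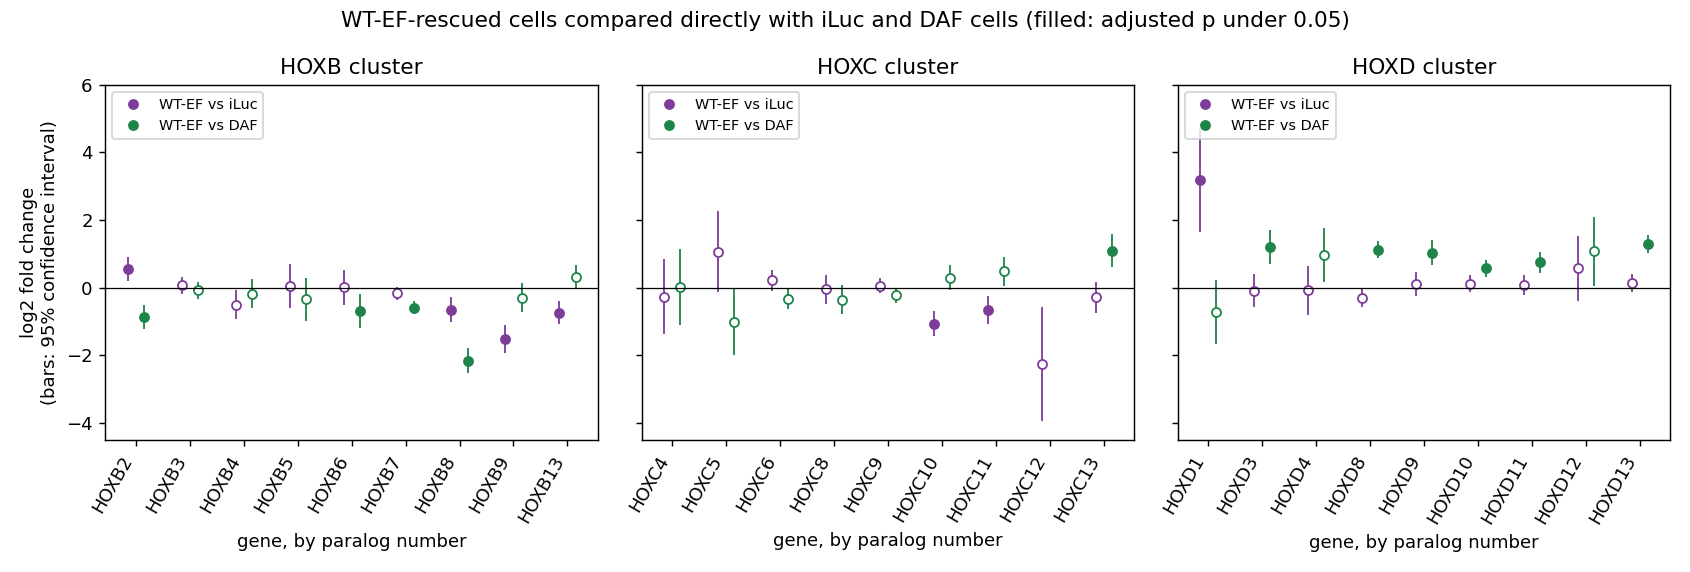
Log2 fold change of WT-EF against iLuc and against DAF (y axis) for each tested HOXB, HOXC and HOXD gene by paralog number (x axis). Points are edgeR estimates, filled where the adjusted p is under 0.05, and bars are 95% confidence intervals. HOXD3 to HOXD13 lay above 0 against DAF and were not called against iLuc, where HOXD8 was at -0.30 and HOXD12 at 0.57, whereas HOXB9, HOXB13, HOXC10 and HOXC11 lay below 0 against iLuc. HOXC12 against DAF is not drawn because DAF had 0 counts.

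The HOXD genes with enough counts for values per library showed the same grouping. HOXD8, a central gene of the trunk, stood at 60.2, 62.2 and 62.4 CPM in iLuc, 25.2, 27.8 and 18.9 in iEF, 49.3, 52.1 and 48.8 in WT-EF, 22.7, 26.7 and 16.3 in Δ22 and 24.2, 25.0 and 20.02 in DAF. The iLuc and WT-EF libraries did not overlap with the other conditions, and WT-EF lay below iLuc without overlap. Its log2 fold change against iEF was 1.38 ± 0.12 (SE) in iLuc (adjusted p = 4.5e-07) and 1.08 ± 0.12 in WT-EF (adjusted p = 1.1e-05), and the difference of WT-EF from iLuc, -0.30 with a 95% interval from -0.56 to -0.05, missed the cutoff (adjusted p = 0.095). HOXD13, which patterns the digits and is expressed at the posterior end of the embryo, was at 40.7, 34.8 and 38.2 CPM in iLuc, 17.4, 18.8 and 16.9 in iEF, 37.9, 39.2 and 48.7 in WT-EF, 12.8, 16.6 and 13.7 in Δ22 and 15.9, 17.8 and 17.6 in DAF. Again iLuc and WT-EF were apart from the other 3 conditions. The log2 fold change against iEF was 1.10 ± 0.12 in iLuc (adjusted p = 3.9e-06) and 1.24 ± 0.12 in WT-EF (adjusted p = 3.1e-06), and WT-EF exceeded DAF by 1.29 ± 0.12 (adjusted p = 5.7e-06).

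HOXD9, of the limb and lower trunk, was at 20.2, 16.4 and 17.4 CPM in iLuc, 6.73, 10.05 and 6.40 in iEF, 21.3, 17.4 and 19.0 in WT-EF, 7.53, 9.41 and 5.90 in Δ22 and 10.1, 10.7 and 7.68 in DAF. Its lowest iLuc library was above the highest library of iEF, Δ22 and DAF. The log2 fold change was 1.24 ± 0.17 (SE) in iLuc (adjusted p = 3.7e-05) and 1.34 ± 0.17 in WT-EF (adjusted p = 3.6e-05), while DAF against iEF gave 0.31 with an interval from -0.07 to 0.68. HOXD11, which acts in the forearm and the kidney, was at 10.9, 10.9 and 9.01 CPM in iLuc, 5.12, 6.14 and 4.74 in iEF, 10.6, 10.3 and 11.3 in WT-EF, 4.95, 6.78 and 4.65 in Δ22 and 6.33, 7.49 and 5.57 in DAF. The iLuc and WT-EF libraries were above all others, and the log2 fold changes against iEF were 0.95 ± 0.14 (adjusted p = 8.1e-05) and 1.02 ± 0.14 (adjusted p = 7.5e-05). HOXD11 and its neighbour HOXD10 share 21.4% and 18.2% of their exonic bases with each other on the same strand in the annotation used here. If the authors' annotation had the same overlap, their counting mode would give reads in that stretch to neither gene. HOXD10, of the hindlimb and lumbar cord, averaged between 27.4 and 30.1 CPM in iEF, Δ22 and DAF, 40.8 in iLuc and 44.3 in WT-EF, the smallest change among the called HOXD genes (log2 fold change 0.55 ± 0.12 in iLuc, adjusted p = 0.0020, and 0.67 ± 0.12 in WT-EF, adjusted p = 0.00066).

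HOXD3, the anterior gene that rose with the posterior ones of its cluster, was at 10.2, 11.6 and 9.73 CPM in iLuc, 2.47, 4.82 and 2.06 in iEF, 8.97, 9.09 and 11.2 in WT-EF, 3.11, 5.53 and 3.29 in Δ22 and 4.74, 4.35 and 3.82 in DAF. It had the largest log2 fold change among the HOXD genes with at least 50 counts on average, 1.80 ± 0.24 (SE) in iLuc (adjusted p = 2.1e-05) and 1.72 ± 0.24 in WT-EF (adjusted p = 6.9e-05), and again the 2 groups were apart from the rest. DAF exceeded iEF by 0.52 with an interval from 0.01 to 1.04 (adjusted p = 0.21), and WT-EF exceeded DAF by 1.19 ± 0.23 (adjusted p = 0.0013). Against iLuc, the 95% intervals of WT-EF for HOXD3, HOXD9, HOXD10, HOXD11 and HOXD13 ran from -0.57 to 0.39, -0.26 to 0.46, -0.14 to 0.38, -0.22 to 0.38 and -0.12 to 0.40. In both iEF and Δ22, replicate 2 was the highest of the 3 libraries for each of HOXD3, HOXD8, HOXD9, HOXD10, HOXD11 and HOXD13.

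Low counts limited the remaining HOXD genes. HOXD1 had 1, 0 and 1 counts in the iLuc libraries, 12, 12 and 8 in iEF, 7, 6 and 10 in WT-EF, 9, 15 and 9 in Δ22 and 13, 13 and 7 in DAF. All iLuc libraries were below all others, which overlapped. With 32 counts against 2, iEF exceeded iLuc 16.0-fold (95% counting interval 4.07 to 138), and WT-EF exceeded iLuc 10.5-fold (2.60 to 91.9), with adjusted p of 0.00034 and 0.0056 in edgeR. WT-EF differed from iEF by -0.59 on the log2 scale, with an interval from -1.54 to 0.36. The annotation places exons of the opposite strand over 60.1% of the exonic bases of HOXD1, so its reads and antisense reads cannot be told apart where counting ignored strand, which the sources used here do not state. The same limit holds for HOXD8 and HOXD3, with 24.4% and 14.1% of their exonic bases so covered. HOXD4 averaged between 0.343 and 0.793 CPM in the 5 conditions, and HOXD12 between 0.126 and 0.455 CPM. Both were called higher in WT-EF, and both calls were lost when iEF replicate 3 or WT-EF replicate 3 was left out, the HOXD4 call also without iEF replicate 1 and the HOXD12 call also without iEF replicate 2 (adjusted p between 0.068 and 0.23). The HOXD4 call in iLuc was lost without iLuc replicate 1 or 2 or iEF replicate 1 or 3 (adjusted p between 0.054 and 0.098).

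**Figure D4:**
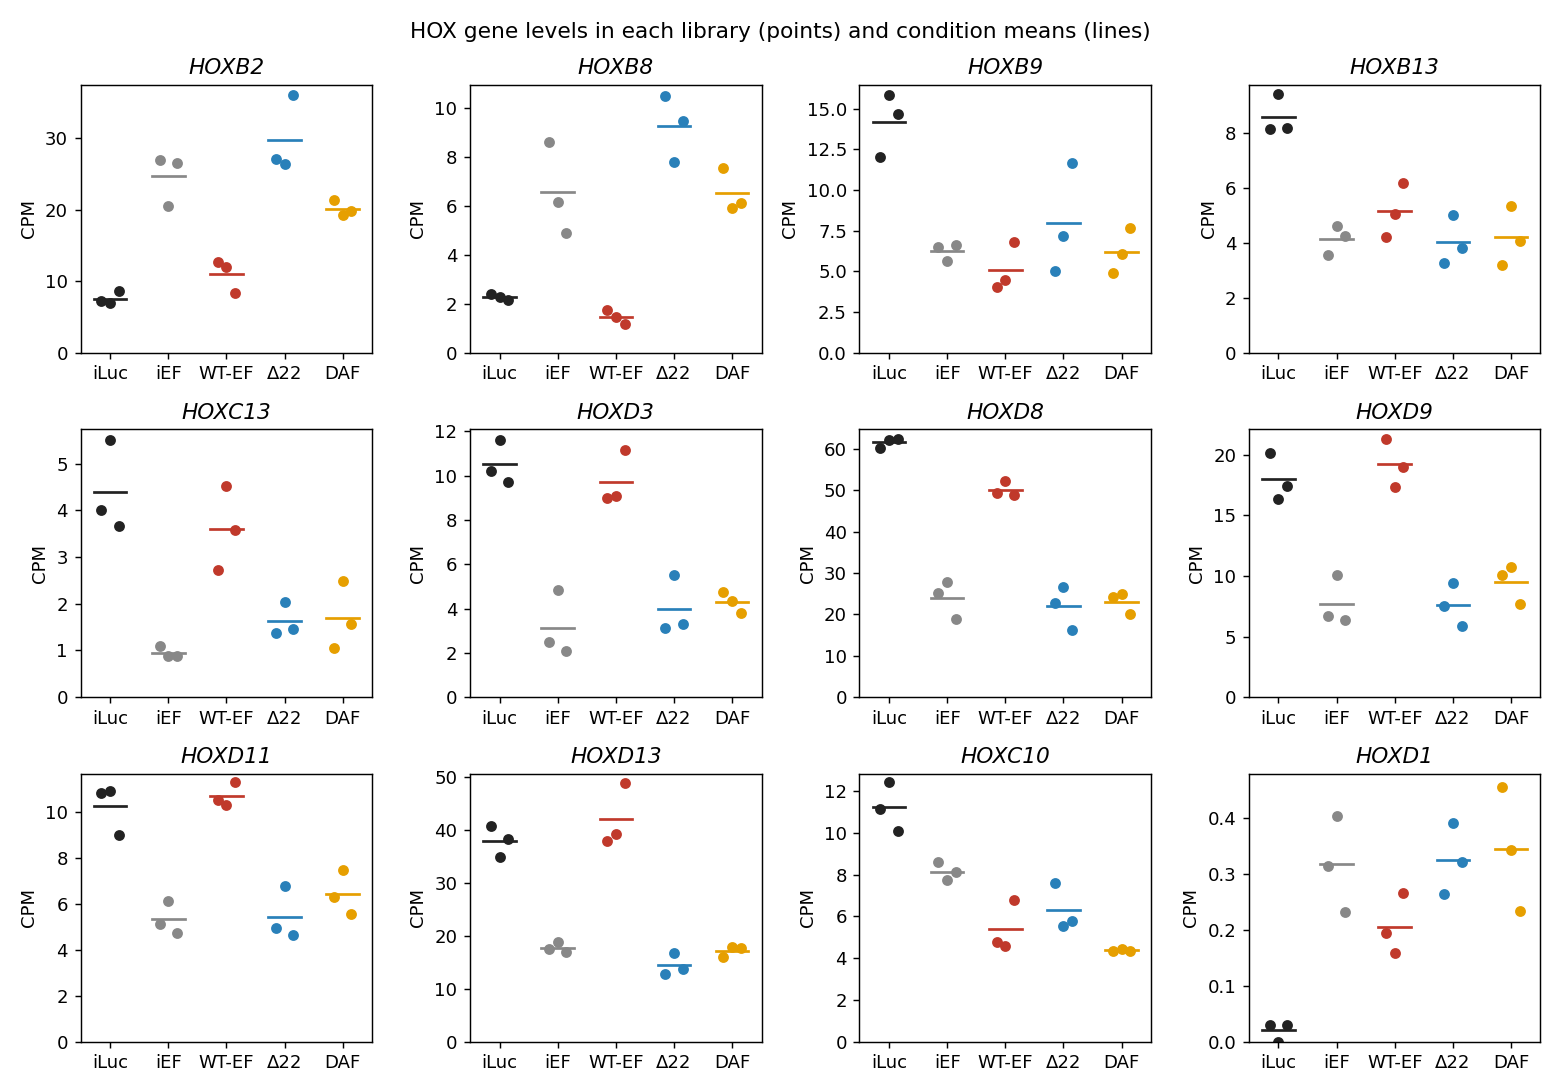
Levels of 12 HOX genes in CPM (y axis, from 0) in each condition (x axis). Points are libraries and lines are means of 3 libraries. HOXC13 and the HOXD genes other than HOXD1 were high in iLuc and WT-EF, HOXB2 and HOXB8 were low there, and HOXB9, HOXB13 and HOXC10 were highest in iLuc.

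In HOXB the genes lower than iEF in both iLuc and WT-EF were HOXB2, HOXB3, HOXB6, HOXB7 and HOXB8. HOXB2, a gene of the hindbrain, was at 7.18, 6.90 and 8.60 CPM in iLuc, 27.0, 20.5 and 26.6 in iEF, 12.7, 12.02 and 8.33 in WT-EF, 27.1, 26.4 and 36.0 in Δ22 and 21.4, 19.2 and 19.9 in DAF. The iLuc and WT-EF libraries were below those of all other conditions, and iLuc and WT-EF overlapped. The log2 fold change against iEF was -1.70 ± 0.17 (SE) in iLuc (adjusted p = 1.4e-06) and -1.15 ± 0.17 in WT-EF (adjusted p = 0.00010). WT-EF exceeded iLuc by 0.55 ± 0.17 (adjusted p = 0.034), a call lost without iLuc replicate 1 or 2 or WT-EF replicate 1 or 2 (adjusted p between 0.089 and 0.19). HOXB8, a central gene active in blood progenitors and the spinal cord, was at 2.41, 2.27 and 2.15 CPM in iLuc, 8.62, 6.17 and 4.89 in iEF, 1.74, 1.48 and 1.17 in WT-EF, 10.5, 7.82 and 9.47 in Δ22 and 7.56, 5.94 and 6.14 in DAF. WT-EF was lowest without overlap, iLuc came next, and the other 3 conditions were above both. The log2 fold changes against iEF were -1.497 ± 0.17 in iLuc (adjusted p = 4.3e-06) and -2.15 ± 0.17 in WT-EF (adjusted p = 5.8e-07). WT-EF fell below iLuc by 0.65 on the log2 scale (adjusted p = 0.019), a call lost without iLuc replicate 2 or 3 or WT-EF replicate 1 or 3 (adjusted p between 0.073 and 0.10), and below DAF by 2.16 (adjusted p = 2.0e-06).

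Among the other HOXB genes, HOXB7, the gene with the most counts of its cluster, averaged 29.4 ± 1.24 CPM (SD, n = 3) in iLuc, 39.9 ± 3.16 in iEF, 26.2 ± 0.940 in WT-EF, 39.7 ± 3.97 in Δ22 and 39.6 ± 1.87 in DAF. It differed from iEF by -0.44 ± 0.09 (SE) on the log2 scale in iLuc (adjusted p = 0.00079) and by -0.61 ± 0.09 in WT-EF (adjusted p = 8.8e-05), while the intervals were -0.20 to 0.18 for Δ22 and -0.20 to 0.17 for DAF. HOXB3, lower than iEF in iLuc and WT-EF, was also lower in DAF than in iEF. It averaged 10.8 ± 0.904 CPM (SD, n = 3) in iLuc, 18.3 ± 1.98 in iEF, 11.4 ± 2.33 in WT-EF, 17.3 ± 2.93 in Δ22 and 11.9 ± 0.767 in DAF. WT-EF and DAF differed in HOXB3 by -0.07 with an interval from -0.33 to 0.18. HOXB6, at 1.35 to 2.53 CPM on average, was called lower in iLuc and WT-EF, but both calls were lost without iEF replicate 2, the first also without iLuc replicate 1 or 3 and the second also without WT-EF replicate 2 or 3 (adjusted p between 0.065 and 0.20). Its call against DAF was lost without WT-EF replicate 2 or 3, DAF replicate 1 or 3 or Δ22 replicate 2 (adjusted p between 0.052 and 0.18). HOXB4 and HOXB5 passed in none of the 7 comparisons.

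The posterior HOXB genes behaved differently in iLuc and WT-EF. HOXB9, a gene of the thoracic skeleton, was at 12.04, 15.9 and 14.7 CPM in iLuc, 6.49, 5.63 and 6.63 in iEF, 4.04, 4.44 and 6.82 in WT-EF, 5.04, 7.17 and 11.7 in Δ22 and 4.89, 6.09 and 7.65 in DAF. Every iLuc library was above every other library, though Δ22 replicate 3 came close, and the remaining conditions overlapped. The log2 fold change against iEF was 1.17 ± 0.19 (SE) in iLuc (adjusted p = 0.00016) and -0.34 ± 0.19 in WT-EF (adjusted p = 0.22), and WT-EF fell below iLuc by 1.51 (adjusted p = 0.00011). HOXB13, a posterior gene known from the prostate and hindgut, was at 8.16, 9.45 and 8.18 CPM in iLuc, 3.57, 4.62 and 4.25 in iEF, 4.24, 5.07 and 6.20 in WT-EF, 3.28, 5.01 and 3.82 in Δ22 and 3.20, 5.36 and 4.06 in DAF. Only iLuc stood apart. The log2 fold change against iEF was 1.06 ± 0.16 in iLuc (adjusted p = 8.3e-05) and 0.32 in WT-EF with an interval from -0.03 to 0.67 (adjusted p = 0.16), and WT-EF fell below iLuc by 0.74 (adjusted p = 0.0045).

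Of the HOXC genes, only HOXC13 was higher in both iLuc and WT-EF. HOXC13, which acts in hair and nail, was at 4.004, 5.50 and 3.67 CPM in iLuc, 1.10, 0.877 and 0.873 in iEF, 2.71, 4.52 and 3.57 in WT-EF, 1.38, 2.03 and 1.47 in Δ22 and 1.05, 2.48 and 1.58 in DAF. The iLuc and WT-EF libraries overlapped with each other and were above the rest, and the iEF libraries were the lowest apart from an overlap with 1 DAF library. The log2 fold change against iEF was 2.15 ± 0.24 (SE) in iLuc (adjusted p = 3.7e-06), 1.86 ± 0.24 in WT-EF (adjusted p = 3.2e-05), 0.72 in Δ22 with an interval from 0.19 to 1.25 (adjusted p = 0.19) and 0.77 in DAF with an interval from 0.24 to 1.30 (adjusted p = 0.061). WT-EF exceeded DAF by 1.09 ± 0.23 (adjusted p = 0.0021).

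HOXC10, a gene of the lumbar cord and hindlimb, was highest in iLuc, at 11.2, 12.4 and 10.1 CPM, with 8.59, 7.76 and 8.11 in iEF, 4.79, 4.57 and 6.79 in WT-EF, 7.59, 5.53 and 5.79 in Δ22 and 4.32, 4.46 and 4.36 in DAF. All iLuc libraries were above all iEF libraries, these were above every library of the 3 rescued conditions, and the DAF libraries were the lowest. DAF was lower than iEF, as given above, and Δ22 against iEF gave -0.37 with an interval from -0.74 to -0.01 (adjusted p = 0.36). WT-EF fell below iLuc by 1.07 on the log2 scale (adjusted p = 0.00060), and this call held in all 25 alternative analyses. The smaller difference of iLuc from iEF, 0.47 ± 0.17 (SE; adjusted p = 0.038), was lost without any of 8 libraries, which include all iEF libraries and iLuc replicates 1 and 2 (adjusted p between 0.054 and 0.23). That of WT-EF from iEF, -0.60 ± 0.17 (adjusted p = 0.016), was lost without iEF replicate 1 or WT-EF replicate 1 or 2 (adjusted p between 0.058 and 0.094).

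HOXC11 averaged 3.68 ± 0.195 CPM (SD, n = 3) in iLuc, 2.30 ± 0.351 in iEF, 2.36 ± 0.491 in WT-EF, 2.03 ± 0.0908 in Δ22 and 1.68 ± 0.304 in DAF. It was 0.68 higher in iLuc than in iEF on the log2 scale (adjusted p = 0.010), a call lost without iLuc replicate 2 or iEF replicate 1 (adjusted p between 0.070 and 0.077), and 0.65 lower in WT-EF than in iLuc (adjusted p = 0.026), a call lost without any iLuc library or WT-EF replicate 1 or 2 (adjusted p between 0.055 and 0.18). HOXC12 had 33 counts in iLuc and 4 in iEF, a ratio of 8.27 (95% counting interval 2.94 to 32.1), and none in DAF. The HOXC12 call in iLuc against iEF was lost without iLuc replicate 2 or iEF replicate 1 (adjusted p between 0.088 and 0.093). HOXC6, a gene of the thoracic trunk, averaged 4.90 ± 0.254 CPM in iLuc and 7.54 ± 1.07 in iEF (log2 fold change -0.62 ± 0.15 SE, adjusted p = 0.0030), and its call in WT-EF (-0.41, adjusted p = 0.045) was lost without any of 13 libraries (adjusted p between 0.051 and 0.24). HOXC5 had at most 25 counts in a library, and 67.3% of its exonic bases are shared with other genes of the same strand. HOXC9, at 25.9 to 31.6 CPM on average, and HOXC8, at 3.04 to 3.92 CPM, passed in none of the 7 comparisons. For HOXC9 the interval of iLuc against iEF ran from -0.34 to 0.10.

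The other genes that go with HOX function were read from lists, beside a background of 19.5% of all genes higher and 22.1% lower in iLuc than in iEF (41.6% in either direction). Of 9 TALE partners, 3 were higher and 3 lower in iLuc than in iEF (list median -0.19), among them MEIS1 at 2.70 ± 0.22 (SE; adjusted p = 1.7e-07), PBX3 at -2.20 ± 0.18 (adjusted p = 1.5e-07) and MEIS2 at -1.32 ± 0.21 (adjusted p = 0.00011). In WT-EF these were called in the same directions, at 1.64, -1.56 and -1.89. Of 18 noncoding RNAs inside the clusters, 11 were tested, and 4 were higher (HOTAIR, HOXC-AS3 and HOXC13-AS in HOXC and HOXD-AS2 in HOXD) and 2 lower (HOXB-AS1 and HAGLR) in iLuc. HOTAIR, which lies between HOXC11 and HOXC12, was higher in iLuc than in iEF by 1.55 ± 0.25 (adjusted p = 0.00012) and lower in WT-EF than in iLuc by 1.02 ± 0.24 (adjusted p = 0.0072). HAGLR, whose exons overlap HOXD1 on the opposite strand, was lower in iLuc by 0.47 ± 0.16 (adjusted p = 0.029).

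Genes that flank the clusters were called in iLuc against iEF in 12 of 15 tested cases, 7 higher and 5 lower, with a median of 0.07, where 41.6% of all genes tested were called (19.5% higher and 22.1% lower). Beside HOXB13, TTLL6 (4.37 ± 0.29 SE, adjusted p = 2.8e-08) and PRAC1 (2.17 ± 0.25, adjusted p = 5.0e-06) were higher in iLuc than in iEF, and both were lower in WT-EF than in iLuc, by 2.99 ± 0.26 (adjusted p = 4.9e-06) and 1.85 ± 0.24 (adjusted p = 0.00014). Beside HOXD13, EVX2 exceeded iEF by 1.59 ± 0.42 in iLuc (adjusted p = 0.0069) and by 3.12 ± 0.40 in WT-EF (adjusted p = 3.3e-05). Of 15 tested genes of retinoic acid signalling, 3 were higher and 8 lower in iLuc than in iEF (median -0.45), with the receptor RARB at -4.85 ± 0.57 (adjusted p = 7.2e-06) and the retinaldehyde dehydrogenase ALDH1A3 at -3.84 ± 0.31 (adjusted p = 1.7e-07). Of 22 tested upstream regulators, 10 were higher and 3 lower in iLuc (median 0.35), with the polycomb subunits CBX2 at 1.42 ± 0.19 (adjusted p = 2.2e-05) and CBX8 at 1.04 ± 0.15 (adjusted p = 5.2e-05) higher and PHC2 at -1.18 ± 0.08 (adjusted p = 3.9e-08) lower. The part of any of these genes in the HOX differences was not tested.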

How the data were processed

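RNA-seq libraries of A673 cells were analysed, with 3 per condition, grouped by the deposited sample labels. Per the study's methods and the submitters' processing notes, paired-end reads were aligned to hg19 with STAR (version 2.5.1b in the notes) and assigned to genes by htseq-count (intersection-strict), which drops reads that fit more than 1 gene. The strand setting and the annotation are not given in the sources used here. The authors deposited whole-number counts per gene, without normalization, and a table of expected counts after ComBat adjustment by replicate set, which were rounded and used as an alternative. The deposited fold changes and p-values of the authors' own comparisons were not used, nor were 3 columns of other samples.

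Symbols were matched to 55538 of 57820 identifiers, and exon lengths, overlaps and positions were read from a GENCODE annotation of GRCh37. The 28793 genes with a mean of 1 count or more were tested with edgeR 4.0.16 in R 4.3.3: TMM, 1 quasi-likelihood fit of all 15 libraries with condition and replicate number as a block, and Benjamini-Hochberg adjustment within each of 7 comparisons at a cutoff of 0.05. CPM are from edgeR's cpm function with TMM-scaled library sizes, and fold changes are on edgeR's log2 scale. Counting intervals are 95% and cover counting error only. The block follows the study, which adjusted replicate sets for batch. Same-numbered libraries had a median correlation of deviations from the condition mean of 0.15 (30 pairs, from -0.12 to 0.64) and differently numbered ones -0.08 (60 pairs). Replicates differed beyond sampling noise in every pair. The fit was tested on simulated counts without replicate effects, with changes set only in genes that averaged at least 50 counts. That test does not show how well changes in genes with few counts are found. Members and gene lists were chosen with earlier results of these data known. Values per library are given for the 10 members with at least 50 counts on average and a called change over 2-fold against iEF, and HOXC10 and HOXD1 were added after their values were seen, as were EVX2 and HAGLR among the listed genes. The values of 1 listed gene are not reported here. Alternatives used DESeq2 1.42.0, other filters and scaling, fits of 6 libraries, no block, and left-out libraries.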

Additional observations from a re-analysis of the deposited data

How the results depend on the processing

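Of 58 calls of a HOX gene in a comparison, 36 held in every one of the 25 alternatives run for them and 22 were lost in at least 1. Some calls held without any single library but were lost when replicate 1 or 2 was left out of every condition. In WT-EF against iLuc these were HOXB13 and HOXD1, and in DAF against iEF HOXB3 and HOXC10. In iLuc against iEF they were HOXC5, HOXC6 and HOXD10. No direction turned in any of the 1449 values, of which 133 missed the cutoff, and the causes were not tested. In fits of only the 6 libraries compared, 4 members were lower in WT-EF than in iEF, 1 was higher and 3 lower in WT-EF than in iLuc, and 1 was higher and 4 lower in DAF than in Δ22. DESeq2's Wald test called 1 member higher in Δ22 and 1 in DAF than in iEF, and so did DESeq2 on the ComBat-adjusted counts, which also called 2 lower in DAF than in Δ22. With filterByExpr 1 member was higher in DAF than in iEF, and with no filter on low counts 2 were lower in DAF than in Δ22.

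Without the replicate block, 13 members were higher and 7 lower in iLuc than in iEF, 9 and 5 in WT-EF, and none was lower in DAF than in Δ22. Leaving out replicates gave between 9 and 13 higher and 6 and 9 lower members in iLuc against iEF, 7 to 9 and 4 to 8 in WT-EF against iEF, 0 to 1 and 0 to 2 in DAF against iEF, 0 to 2 and 2 to 6 in WT-EF against iLuc, 7 to 9 and 3 to 4 in WT-EF against DAF, 0 to 0 and 0 to 2 in DAF against Δ22, and 0 in Δ22 against iEF. Low counts limit HOXA, HOXC12, HOXD1, HOXD4 and HOXD12.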
